A study of Homo sapiens with 28 samples.

Results

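Open chromatin of multiple myeloma cell lines was profiled in 28 ATAC-seq libraries, where the Tn5 transposase cuts and tags accessible DNA. Of 154985 regions, 113854 lay more than 2500 bases from the nearest annotated transcription start. The distal regions described here are the 587 of these that were called as a peak in every one of the 28 libraries. They were selected on the peak calls and on distance alone, so their presence in all libraries is the rule and not a result. They made up 0.516% of distal regions, whereas 13.3% of the 41131 regions nearer a start were called in all libraries. Among the 6047 regions called everywhere, 9.71% were distal, against 73.5% of all regions.

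The 22 untreated libraries were of H1112, Karpas620, KMS11, KMS12BM, KMS12PE, KMS18, KMS20, KMS21BM, KMS26, KMS27, KMS28, KMS34, L363, LP1, MM1S, OCIMY5, OPM2, PCM6, PE1, RPMI8226, U266 and XG-6, each an established myeloma line. Karpas620, KMS27, L363, MM1S, OPM2 and RPMI8226 also had 1 library each after 10 µM lenalidomide, taken on day 3. No line had a second library under the same condition, and differences among untreated lines therefore have no error within a line. Lenalidomide binds the E3 ligase receptor cereblon and leads to the loss of the B-lineage factors IKZF1 and IKZF3.

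Distal open regions are mostly enhancers, silencers and insulators, which act on genes over a distance, and their opening usually differs more between cell types than that of promoters. In plasma cells the immunoglobulin loci carry strong enhancers downstream of their constant genes, and translocations in myeloma place oncogenes beside them. CTCF holds insulator sites open in most tissues, and promoters missing from an annotation can also appear as distal regions. The gene named beside a region below is that of the nearest annotated start, the nearest coding gene, the nearest transcript or the gene that holds the region. None of these is evidence that the region acts on the gene.

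The 8 windows below are shown because the results below turn on them, each the 300 bases at the centre of a region in GRCh37. Capitals mark matches on either strand to 4 motifs, namely IRF (GAAANNGAAA), RUNX (TGTGGT), the GC box bound by SP and KLF factors (GGGCGG) and a CTCF core (CCANNAGNNGGC). The end of the CTCF core can overlap a GC box, and neighbouring matches can run together into 1 stretch of capitals.
Largest increase after lenalidomide, in an intron of CNIH3 (chr1:224691190-224691489, plus strand): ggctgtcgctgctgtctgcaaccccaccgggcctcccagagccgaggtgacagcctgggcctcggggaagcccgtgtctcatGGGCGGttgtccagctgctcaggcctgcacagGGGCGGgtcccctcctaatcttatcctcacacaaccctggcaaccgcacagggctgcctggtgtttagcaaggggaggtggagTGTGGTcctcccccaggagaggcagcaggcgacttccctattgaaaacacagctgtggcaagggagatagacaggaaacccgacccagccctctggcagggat
Increase after lenalidomide, RANBP6 nearest coding gene (chr9:6080353-6080652, plus strand): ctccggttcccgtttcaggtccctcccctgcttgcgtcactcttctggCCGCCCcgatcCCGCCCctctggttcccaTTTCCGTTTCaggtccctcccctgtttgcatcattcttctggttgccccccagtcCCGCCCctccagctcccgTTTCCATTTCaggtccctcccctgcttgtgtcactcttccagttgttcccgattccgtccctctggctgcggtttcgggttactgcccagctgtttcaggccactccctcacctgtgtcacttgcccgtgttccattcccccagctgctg
Increase after lenalidomide, CD5 nearest coding gene (chr11:60828819-60829118, plus strand): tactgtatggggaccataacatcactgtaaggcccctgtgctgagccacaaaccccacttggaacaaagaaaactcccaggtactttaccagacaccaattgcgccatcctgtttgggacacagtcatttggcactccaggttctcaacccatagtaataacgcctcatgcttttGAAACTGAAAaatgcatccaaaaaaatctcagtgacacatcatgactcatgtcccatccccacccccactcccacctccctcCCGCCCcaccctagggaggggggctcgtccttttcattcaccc
Largest decrease after lenalidomide, in an intron of MEF2C-AS1 (chr5:88639572-88639871, plus strand): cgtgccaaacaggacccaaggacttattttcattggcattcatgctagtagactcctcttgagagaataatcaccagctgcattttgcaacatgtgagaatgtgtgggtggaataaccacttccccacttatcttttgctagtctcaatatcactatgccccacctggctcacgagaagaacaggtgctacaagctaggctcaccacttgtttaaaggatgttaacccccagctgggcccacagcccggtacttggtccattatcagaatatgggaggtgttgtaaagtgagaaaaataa
Decrease after lenalidomide, in an intron of RSRC1 (chr3:158073676-158073975, plus strand): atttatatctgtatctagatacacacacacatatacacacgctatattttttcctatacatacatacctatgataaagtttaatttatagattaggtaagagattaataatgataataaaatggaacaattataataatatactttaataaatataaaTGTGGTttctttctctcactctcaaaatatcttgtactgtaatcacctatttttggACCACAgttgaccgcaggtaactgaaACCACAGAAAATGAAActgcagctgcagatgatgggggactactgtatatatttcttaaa
Least variable across lines, overlapping an exon of CTDSP1 near MIR26B (chr2:219271291-219271590, plus strand): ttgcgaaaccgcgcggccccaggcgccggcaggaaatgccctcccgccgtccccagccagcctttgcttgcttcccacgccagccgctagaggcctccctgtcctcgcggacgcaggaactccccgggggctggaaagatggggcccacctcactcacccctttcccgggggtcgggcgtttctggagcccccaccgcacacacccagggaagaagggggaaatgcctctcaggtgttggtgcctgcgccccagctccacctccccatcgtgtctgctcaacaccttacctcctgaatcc
Highest of the regions with a CTCF core that were not CpG-rich, CUX1 nearest coding gene (chr7:101500175-101500474, plus strand): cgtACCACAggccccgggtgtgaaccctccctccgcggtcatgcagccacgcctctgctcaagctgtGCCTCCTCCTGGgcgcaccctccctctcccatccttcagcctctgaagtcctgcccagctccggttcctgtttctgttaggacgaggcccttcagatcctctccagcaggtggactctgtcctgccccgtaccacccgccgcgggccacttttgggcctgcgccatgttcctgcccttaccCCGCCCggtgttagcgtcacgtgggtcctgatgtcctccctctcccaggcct
Downstream of the IgL constant genes, IGLC7 nearest start (chr22:23277641-23277940, plus strand): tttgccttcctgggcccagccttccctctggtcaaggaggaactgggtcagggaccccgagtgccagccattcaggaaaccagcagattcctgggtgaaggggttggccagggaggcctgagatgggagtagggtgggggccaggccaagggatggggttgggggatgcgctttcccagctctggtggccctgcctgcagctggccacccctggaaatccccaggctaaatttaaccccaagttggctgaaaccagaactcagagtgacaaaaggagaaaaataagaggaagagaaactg

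The RANBP6 window held 2 IRF matches and 3 GC boxes. The CD5 window held 1 IRF match, and the RSRC1 window held 1 with 3 RUNX matches. No match to the 4 motifs was found in the MEF2C-AS1, MIR26B or IGLC7 windows.

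The label of distal was checked against a later annotation, since the authors' distances came from an older one. In GENCODE release 44, 82 of the 587 regions (14.0%) lay within 2500 bases of a transcript start, and 59 contained one. Of the starts near these 82 regions, 64 belonged to long noncoding RNAs and 13 to protein-coding genes. A window was called CpG-rich, as most promoters are, when at least 55% of it was G or C and its CpG dinucleotides reached 0.65 of the number the base composition predicts. This held for 124 of the 587 regions (21.1%), for 83.7% of the regions near starts that were called in all libraries and for 2.22% of the other distal regions. The share was 8.89% in the 3700 distal regions called in at least 20 but not all libraries. Of the 124 CpG-rich regions, 46 were among the 82 with a later start. The remaining 427 regions (72.7%) had neither feature. At the limit of the rule, the 3 nearest members lay 2509, 2510 and 2532 bases from a start, and the 3 regions just inside the limit lay at 2456, 2458 and 2461.

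The distal regions open in every library were wide, and most lay outside annotated genes. Their median width was 899 bases (range 416 to 2920), against 391 for the other distal regions and 1091 for the regions near starts called everywhere. It was 758.5 for the distal regions called in at least 20 but not all libraries. Each region is a union of peaks over libraries, so its width follows in part from the rule. The median distance to a start was 12190 bases, with quartiles of 6604 and 22528, and was shorter than the 17269 of other distal regions. For the distal regions called in at least 20 but not all libraries it was 13428.5, close to that of members. They lay in an intron in 41.6% of cases and outside any annotated gene in 56.9%. For other distal regions these shares were 52.0% and 46.8%, and for those called in at least 20 but not all libraries 49.4% and 49.5%. The farthest was 196642 bases from a start. All 22 autosomes had at least 3. Chromosome 19 held the highest share, 19 of its 1545 distal regions (1.23%), and chromosome 21 the lowest, 3 of 1359 (0.221%).

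Some of these regions are near copies of each other, and reads from them cannot be assigned to 1 place with certainty. In 47 regions more than 50% of the 31-base words occurred again in the genome, while 306 regions had no repeated word. There were 10 groups of 2 to 5 regions, 25 in all, shared at least 50% of their words within the group. The largest held 5 regions around the duplicated SMN and GTF2H2 genes at chr5:69139943-70016177, and another held the 3 regions beside NCF1, NCF1B and NCF1C, a phagocyte oxidase gene and its pseudogenes. Values for these regions are uncertain for that reason.

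Some motifs differed between CpG-rich and other members. The CpG-rich label was set on the base content of these same windows. Differences in motif letters between the 2 kinds, such as GC box and ETS letters that hold a CpG, therefore follow in part from it. GC boxes were found in 80.6% of CpG-rich members and 18.6% of the others, against 72.7% of regions near starts called everywhere and 7.37% of the other distal regions (14.7% of all 154985 regions). The GC box was added to the search after values had been seen. ETS letters (CCGGAA) behaved similarly, at 29.8% and 7.99% of CpG-rich and other members, 31.4% near starts and 4.38% in other distal regions (6.70% of all regions). A CTCF core was present in 42 members (7.16%), with 7.26% in the CpG-rich and 7.13% in the others. The same core was found in 3.11% of regions near starts, 5.29% of the other distal regions and 5.29% of all regions. It was more frequent, at 11.5%, in the 3700 distal regions called in at least 20 but not all libraries. IRF letters occurred in 13.4% of the members that were not CpG-rich and 1.61% of the CpG-rich ones (9.60% of all regions), and RUNX letters in 36.7% and 8.87% (30.2% of all regions). AP-1 letters (TGANTCA) were found in 14.1% of members and 15.2% of all regions, and the Ikaros core (TGGGAA) in 21.98% and 21.3%. In the 3700 distal regions called in at least 20 but not all libraries, GC boxes were in 16.1% and ETS letters in 7.27%. IRF letters were in 13.2% of them and RUNX letters in 32.3%. These shares were near those of the members that were not CpG-rich. Each pattern was searched on both strands, and a match is a description of the letters in a window and not of binding.

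**Figure D1:**
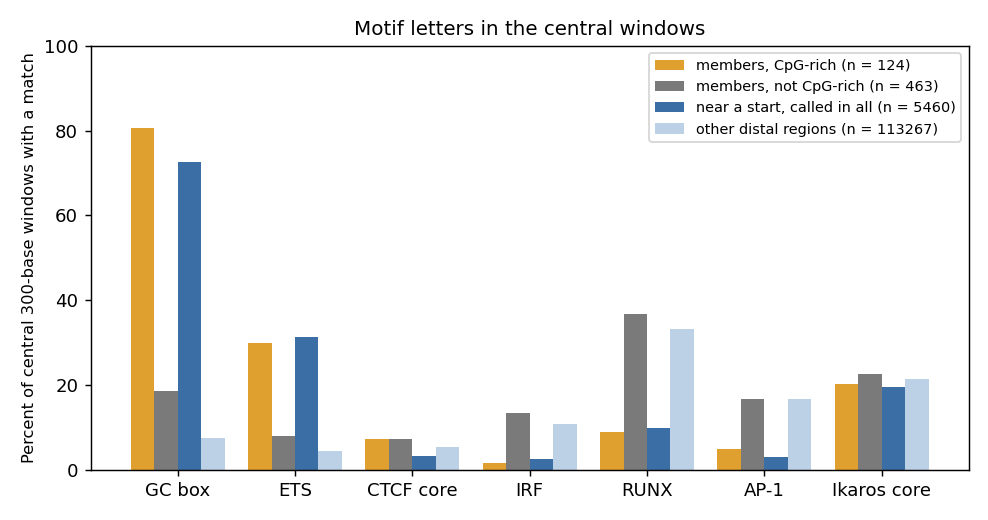
Percent of central 300-base windows that hold each motif (vertical axis), for members that were CpG-rich, members that were not, regions near starts called in all libraries and other distal regions. For the GC box, ETS, IRF, RUNX and AP-1 letters the CpG-rich members, with 80.6% holding a GC box, sit nearer the regions near starts than the other members do, and for the CTCF and Ikaros cores both kinds of member are close.

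Depth set the precision of these values. Total counts over all regions were 1599857 to 5564534 per library, and 18943 to 58983 regions were called per library. The 587 regions held 2.06% to 2.76% of the counts of an untreated library (median 2.34%) and 2.08% to 2.70% after lenalidomide. The median count per member was 48 to 168 across libraries, and the lowest count of any member in any library was 8. As a check on the labelled cell type, the regions nearest the starts of TNFRSF17 (BCMA) and PRDM1 were called in 22 of 22 untreated lines, SDC1 and CD38 in 21, and IRF4 and XBP1 in 18. Those of MZB1 and POU2AF1 were each called in 1, although some region of each gene was called in at least 20. The start regions of MS4A1 (CD20), CD3E and CD14, which mark B cells, T cells and monocytes, were called in 2, 1 and 2 lines, although some region of MS4A1 was called in 16 lines and of CD3E in 20. The nearest regions of the T cell genes BCL11B and CD2 were called in 12 and 10 lines, that of the myeloid gene LYZ in 8, and that of CIITA, the regulator of MHC class II genes, in 22.

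Members were more accessible than other distal regions, which follows from the rule. Levels are given as CPM, a region's count scaled to the library's total over all regions. The mean CPM over the 22 untreated lines had a median of 33.9 over members (quartiles 24.4 and 49.0, highest 184), against 48.4 for regions near starts called everywhere and 2.01 for other distal regions. The 404 distal regions that missed a call in only 1 library had a median of 25.6. Of those 404, 54 were missing in PE1, 45 in PCM6 and 42 in lenalidomide-treated Karpas620.

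The tallest region, at chr3:177075733-177078341, lay 8778 bases from the noncoding RP11-706D8.3, with TBL1XR1 the nearest coding gene. Its CPM ranged from 106 in XG-6 through a median of 173 to 274 in LP1. The second, at chr9:73033073-73035992 near KLF9, a Krüppel-like factor, ranged from 118 in RPMI8226 through 170 to 255 in KMS12PE, and a later noncoding start lies inside it. Both were high in every line, with less than 3-fold between lowest and highest. The third, at chr16:22201312-22202825 in an intron of SDR42E2 and 14777 bases from EEF2K, the kinase that slows translation elongation, ranged from 70.8 to 203 CPM around a median of 136. The region near TRAPPC9 (median 99.2) reached 359.5 CPM in KMS18, and the region near NCF1B (median 98.6) reached 286 in L363. Some of the tallest were far from even. The region 31385 bases from ZNF648 had a median of 103 CPM and a low of 6.62 in KMS12PE, and chr12:133841435-133841944, near the end of the chromosome and 81.2% repeated, had a median of 106 and a low of 6.25 in PE1. The region near RP11-390F4.2 on chromosome 9 ran from 50.5 to 171 around a median of 101, and chr1:249167032-249168777, near the end of chromosome 1, from 47.3 to 273 around 123. The last of the 10, chr15:22460825-22462508, is described with the most variable regions.

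Although every member was called in every line, levels ranged widely over the lines. Across the 22 untreated lines the SD of log2(CPM + 1) had a median of 0.55 over members (quartiles 0.48 and 0.66). This spread holds variation between libraries as well as between lines, since each line had 1 library. The ratio of the highest to the lowest line had a median of 4.76, with 204 members below 4-fold and 50 above 10-fold. Regions near starts called everywhere had a median SD of 0.49. At like levels (mean log2 of 4.55 to 5.53) the median SD was 0.58 for 293 members, 0.50 for 2323 regions near starts and 0.96 for 612 other distal regions. The comparison with other distal regions follows in part from the rule, since a region that lost its call in 1 line could not be a member.

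**Figure D2:**
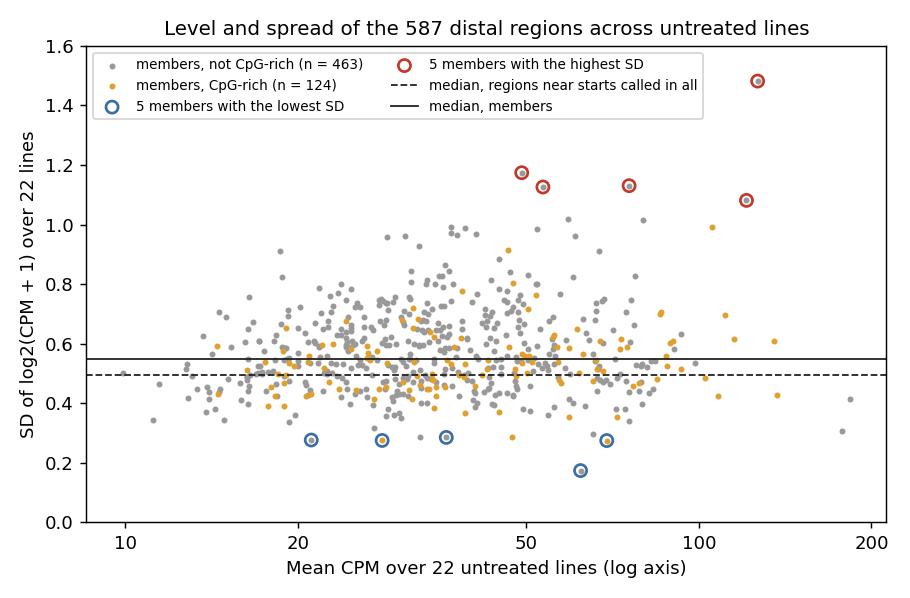
Mean CPM over the 22 untreated lines (horizontal, log axis) against the SD of log2(CPM + 1) over the same lines (vertical), 1 point per member. The solid line at 0.55 is the median of members and the dashed line at 0.49 that of regions near starts called in all libraries, and circles mark the 5 least and 5 most variable members.

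The least variable member was chr2:219270588-219272295, 3218 bases from the microRNA MIR26B and overlapping an exon of the phosphatase gene CTDSP1. Its CPM ran from 51.9 in PE1 through a median of 60.0 to 86.3 in KMS27, with an SD of 0.17, the value it was picked for. The next 4 had SDs of 0.27 to 0.28. They lay in an intron of ITGA1 with PELO the nearest coding gene (lowest 42.9 and median 67.9 CPM), near ZSCAN16 (19.6 to 40.6 CPM), near LINC00608 and FEV (14.2 to 30.6 CPM) and in an intron of BTN2A1, a butyrophilin (24.5 to 54.1 CPM). These 4 lay within 2500 bases of a start in the later annotation, and the MIR26B region did not.

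The most variable member was chr15:22460825-22462508, near AC010760.1, with an SD of 1.48. It was lowest in OCIMY5 at 10.3 CPM and highest in LP1 at 293 CPM, with a median of 117. Levels were below 35 in 6 lines and above 180 in 8. Of its 31-base words, 37.1% were repeated in the genome. The region in an intron of RP11-168K9.2 beside KIRREL3 ranged from 6.23 in KMS20 to 145 in H1112 (median 40.1), and that at chr7:121170183-121171297, with FAM3C the nearest coding gene, from 6.94 in Karpas620 to 145 in KMS27 (median 70.9). The region near PRR16 ranged from 6.83 in H1112 to 107 in KMS18 (median 57.3). The fifth was the chromosome 12 end region given above, with an SD of 1.08. In all 5 the lowest line was called as a peak although it lay far below the highest. Over all members, KMS27 was the highest line in 55 and KMS18 in 48, while Karpas620 was the lowest in 55, KMS12BM in 52 and KMS12PE in 51.

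Within a line, members and regions near starts on the same chromosome tended to deviate the same way. Only chromosome medians were compared, and parts of a chromosome were not examined. For each line, the median deviation of its members on a chromosome from their medians over lines was compared with that of regions near starts called everywhere on the same chromosome. Over 440 points (22 lines by 20 chromosomes with at least 10 members) Pearson's r was 0.776, given as a description because points of a line share a library and its total. Of 48 points where members deviated by more than 0.4 on the log2 scale, 47 deviated the same way near starts. Members on chromosome 19 of KMS12PE were lower by 0.95 and regions near starts by 0.73, and on chromosome 8 of LP1 they were higher by 0.84 and 0.55. Chromosome 18 of KMS12PE was the exception, with members at -0.76 and regions near starts at 0.05. Taking each line's chromosome median off lowered the median SD from 0.55 to 0.49. Those medians came from the members themselves, so some fall follows from the subtraction. Fewer copies of a chromosome and less open chromatin per copy cannot be told apart here.

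**Figure D3:**
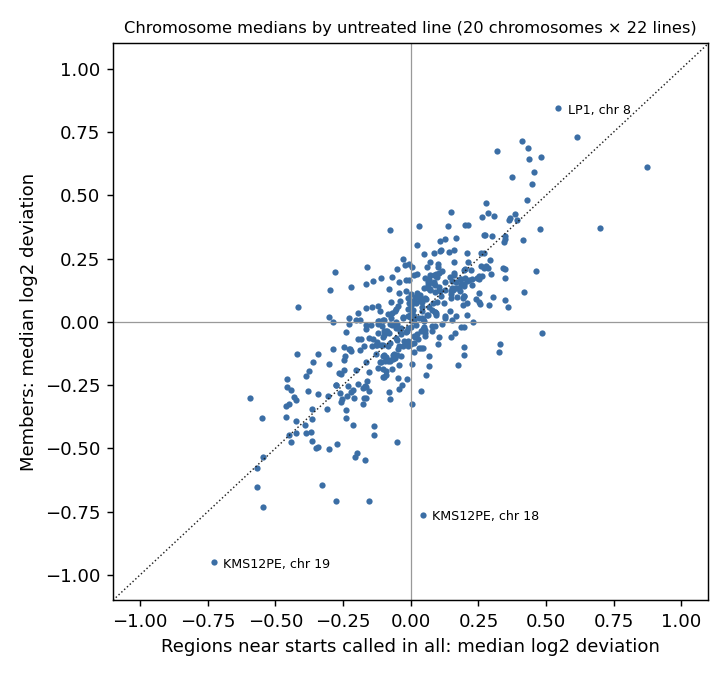
Median log2 deviation of a chromosome in 1 untreated line, for regions near starts called in all libraries (horizontal) and for members (vertical). Most of the 440 points lie along the dotted line of equality, and KMS12PE chromosome 18 lies away from it.

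Differences between lines could be tested in the 6 lines with a lenalidomide pair, where the 2 libraries of a line served as its repeat after a term for treatment. With edgeR's quasi-likelihood F test and Benjamini-Hochberg adjustment over 37732 regions, 536 of the 587 members differed between the 6 lines at an adjusted p below 0.05, where 88.1% of all regions tested did. Members and background were thus close. Of the CpG-rich members 112 of 124 passed, of the others 424 of 463, and of the 42 with a CTCF core 33 passed. That was 78.6% with a core and 92.3% without. Members with a core had a lower median level, 21.7 against 35.1 CPM, and thus fewer counts for the test. Among the 5 least variable members, the MIR26B region gave an adjusted p of 0.0492 by edgeR. The ZSCAN16 and LINC00608 regions, at 0.161 and 0.147 in that test, were among the 51 members that did not pass. The ITGA1 and BTN2A1 regions passed in the same edgeR test, at 3.38e-04 and 1.77e-04. All 5 were picked for a low SD over lines that include these 6, so weak results follow in part from that choice.

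There were 5 members downstream of immunoglobulin constant genes, which are named here after their values had been seen because the study concerned IgL translocations. Of these, 2 lay beyond IGLC7, in the stretch that holds the IgL 3′ enhancer. The first, chr22:23270656-23271586, had a median of 37.4 CPM over the 22 lines, with 21.1 in KMS20 and 159 in RPMI8226. The second, chr22:23277212-23278371, had a median of 26.1, with 9.45 in KMS20, 105 in KMS26 and 161 in RPMI8226. RPMI8226 stood highest in both. Over the 6 members on chromosome 22, which include these 2, the median deviation of RPMI8226 was 1.16 on the log2 scale. The paper lists RPMI8226 and L363 as IgL-translocated lines. In patients with IgL translocations it also reports frequent focal amplifications around the IgL 3′ enhancer. Whether the height belongs to the locus, to its number of copies or to the chromosome was not tested. Both differed between the 6 lines, with adjusted p-values of 1.16e-14 and 3.65e-16 in the edgeR test.

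The other 3 lay beyond the IGHA2 and IGHA1 genes, where the IgH 3′ regulatory regions are known, and 84.4% to 88.1% of their words were repeated, so reads of the copies may be shared. The region near ELK2AP, chr14:106146286-106147549, had a median of 63.3 CPM and ran from 22.5 in PE1 to 219 in LP1. The regions near ELK2BP, chr14:106025933-106027100 and chr14:106032266-106033400, had medians of 51.7 and 34.1 and were lowest in PE1, at 21.3 and 6.25. PE1 was thus the lowest line at all 3. None of the 5 immunoglobulin regions passed the test for lenalidomide, with adjusted p-values of 0.0528 to 0.974.

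Members near genes of 5 lists were counted. The 21 plasma cell genes had 2 of their 178 distal regions (1.12%), the 12 B cell genes 1 of 85 (1.18%) and the 22 interferon genes 1 of 51 (1.96%), where 0.516% of all distal regions were members. The 11 Ikaros and cereblon genes had 0 of 40 and the 10 CTCF and cohesin genes 0 of 39. The region nearest PRDM1, which encodes the plasma cell regulator Blimp-1, lay 42442 bases from a coding start at chr6:106589257-106590243. Its CPM ranged from 18.9 in RPMI8226 through 54.7 to 72.5 in OPM2. The region at chr6:7963083-7964063, in an intron with TXNDC5 the nearest transcript, ranged from 46.3 in PE1 through 69.6 to 167 in KMS18. TXNDC5, whose coding start lies 52062 bases away, encodes an endoplasmic reticulum protein that helps form disulfide bonds. The B cell region lay in an intron of BACH2, which represses PRDM1 in B cells, and ranged from 27.03 in L363 through 61.9 to 119 in PE1. The interferon region lay 4924 bases from IRF1, an activator of interferon-stimulated genes, and ranged from 20.3 in OPM2 through 70.6 to 96.1 in OCIMY5. The later annotation places an IRF1 start inside that region.

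Lenalidomide was compared with no treatment within the 6 lines. All 587 members passed the filter on low counts, and 50 changed at an adjusted p below 0.05 (edgeR quasi-likelihood F test with cell line as a block, over 37732 regions), which is 8.52% where 5.40% of all regions tested changed. In other distal regions the share was 7.37%. Of the 50, 28 rose (4.77%, background 4.17%) and 22 fell (3.75%, background 1.22%). Other distal regions rose in 5.76% of cases and fell in 1.61%. A member had to be called in both libraries of every pair. Neither a region that the drug closed nor one that it opened from uncalled could therefore be a member. With offsets that follow a trend on GC content the same number changed but 20 rose and 30 fell, without a filter 34 rose and 12 fell, and with at least 10 counts required in each library 33 rose and 18 fell. At that count limit 8.7% of members and 9.27% of other distal regions changed. DESeq2 called 21 members, 11 higher and 10 lower. That was 3.58%, where it called 2.21% of all regions and 3.06% of other distal regions. The median log2 change over all members was -0.04, against -0.01 over all regions tested.

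The changes were small. The rises ran from 0.29 to 1.05 on the log2 scale with a median of 0.63, and the falls from -0.26 to -0.77 with a median of -0.46. Among those that passed, 2 members changed more than 2-fold. Sizes of change over all regions tested are not given here, so small changes are not shown to be particular to members. Of the 587, 38 passed and moved the same way in all 6 pairs (6.47%), where 3.35% of all regions tested did. CpG-rich members rarely changed (3 of 124, 2.42%), compared with 47 of 463 others (10.2%). Regions near starts called everywhere changed in 1.67% of cases, so a low share was not particular to the CpG-rich members. The members that rose had a median level of 31.4 CPM and a median GC of 53.8%, and those that fell 61.1 CPM and 46.2%.

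**Figure D4:**
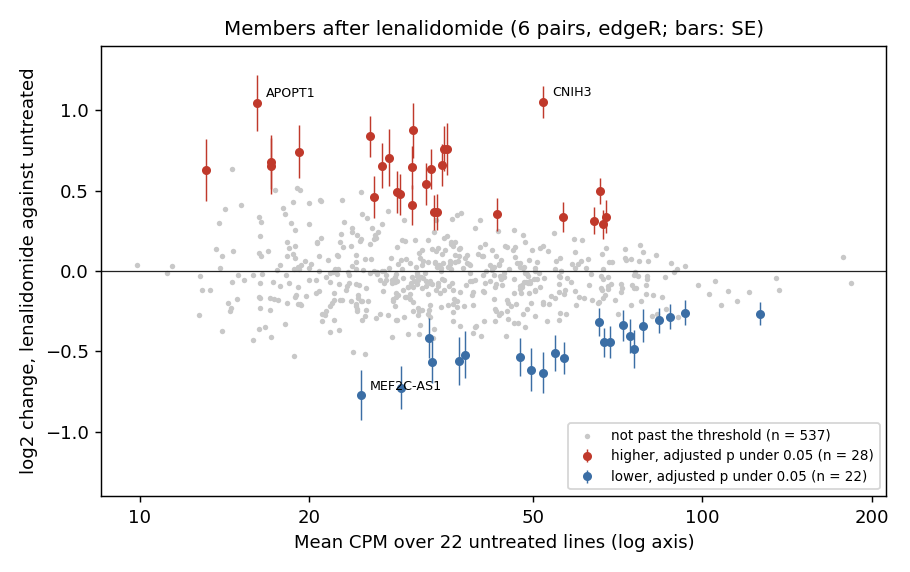
Log2 change after lenalidomide (vertical, edgeR, 6 pairs) against mean CPM over the 22 untreated lines (horizontal, log axis) for all 587 members. Red points are the 28 that rose and blue points the 22 that fell, with SE bars, and grey points did not pass an adjusted p of 0.05.

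The 5 largest rises and 5 largest falls below were taken from members that passed with all 6 pairs in 1 direction, so that agreement is part of the choice. The largest rise was in chr1:224690806-224691875, in an intron of CNIH3, which encodes an AMPA receptor auxiliary subunit. Untreated values in the 6 lines were 34.7 to 109 CPM (median 59.3) and treated values 88.9 to 195 (median 111). Values were higher after treatment in every pair, by 0.39 in RPMI8226 to 1.44 in Karpas620, although the groups overlapped. The log2 change was 1.05 ± 0.10 (SE, 6 pairs) with an adjusted p of 4.05e-08 by edgeR.

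The next was chr14:104073254-104074162, in an intron of APOPT1, a mitochondrial assembly factor. It went from 7.56 to 34.4 CPM (median 10.7) to 12.48 to 56.5 (median 25.5), a log2 change of 1.05 ± 0.17 with an adjusted p of 1.26e-04 by edgeR. OPM2 was highest in both groups, and all 6 pairs rose. The region 21621 bases from QPCT, which encodes glutaminyl cyclase, went from 11.8 to 36.8 CPM (median 21.7) to 23.5 to 54.4 (median 40.9). Its pair changes were uneven, 2.11 in KMS27 and 0.27 in MM1S.

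The RANBP6 region at chr9:6080107-6080900, whose window holds 2 IRF matches, rose from 16.1 to 35.5 CPM (median 21.9) to 31.5 to 61.8 (median 41.1). Its pairs were even, between 0.45 in OPM2 and 1.11 in MM1S, and its log2 change was 0.84 ± 0.13 with an adjusted p of 3.90e-05 by edgeR. The region in an intron of RP11-881M11.8 near CD5, a receptor of T cells and some B cells, had untreated values of 12.2 to 52.0 CPM and treated values of 32.7 to 117. KMS27 and L363 rose by 1.98 and 1.63 and the other 4 lines by 0.15 to 0.32, and without KMS27 the adjusted p was no longer below 0.05.

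Among the falls, chr5:88639422-88640022 in an intron of MEF2C-AS1 changed most. The nearest coding gene was MEF2C, a B cell factor, at 439348 bases. Untreated values were 6.24 to 56.3 CPM (median 32.1) and treated values 3.52 to 42.4 (median 16.2). All 6 lines fell, OPM2 most at -1.395, and the log2 change was -0.77 ± 0.16 with an adjusted p of 0.00171 by edgeR. The region in an intron of EPS15L1, an endocytosis gene, went from 22.4 to 71.8 CPM (median 37.8) to 14.5 to 34.9 (median 24.1), a log2 change of -0.73 ± 0.13. The region near CCDC110 went from 13.2 to 73.4 CPM to 6.65 to 49.3, the CEP128 region from 16.8 to 74.5 to 8.30 to 53.4, and the RSRC1 region from 13.9 to 54.9 to 10.96 to 33.7. CEP128 encodes a centriole protein and RSRC1 a splicing factor. The untreated and treated ranges overlapped in each. With GC offsets the change of the RSRC1 region, whose window is 29.0% G or C, was -0.32 with an adjusted p of 0.183, against -0.57 in the edgeR fit without them.

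**Figure D5:**
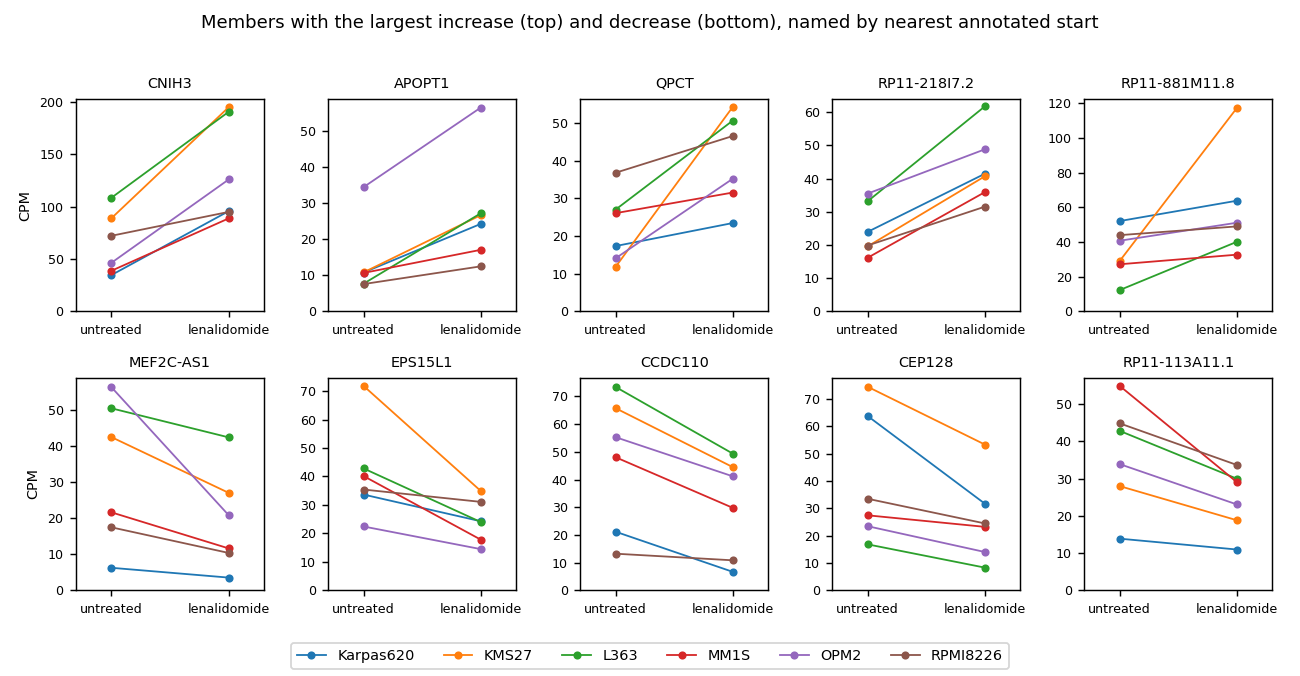
CPM in untreated and lenalidomide-treated libraries of the 6 lines (1 line per cell line) for the 5 members with the largest rise (top) and the 5 with the largest fall (bottom), titled by the nearest annotated start. These members were picked among those with all 6 lines in 1 direction, and the untreated and treated values overlap between lines.

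Of the list members, the IRF1 region rose in all 6 pairs, by 0.21 to 0.39. Its values were 20.3 to 89.7 CPM untreated (median 74.0) and 26.7 to 109 treated (median 90.1), a log2 change of 0.31 ± 0.08 with an adjusted p of 0.0209 by edgeR. The call was lost with DESeq2 (adjusted p 0.160) and in edgeR without Karpas620, KMS27 or MM1S (0.0665, 0.0916 and 0.0585). The TXNDC5 region was lower in 5 of 6 pairs, from 68.9 to 113 CPM (median 88.0) to 33.6 to 106 (median 76.1), and its log2 change was -0.34 with an adjusted p of 0.0475 by edgeR. It passed in 3 of 12 alternatives that kept the block, and without Karpas620, where the pair change was -1.13, the log2 change was -0.21 with an adjusted p of 0.262. The PRDM1 region had a log2 change of 0.23 ± 0.11 and the BACH2 region -0.09 ± 0.10, with adjusted p-values of 0.290 and 0.725 in the same edgeR test. Neither passed.

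A further 3 changed members are named after their values had been seen, for their neighbours. The region 13664 bases from TXNIP, an inhibitor of thioredoxin that limits glucose uptake, rose by nearly the same amount in each line, 0.42 to 0.52, from 58.1 to 91.8 CPM to 81.0 to 131. Its log2 change was 0.50 ± 0.08 with an adjusted p of 1.15e-04 by edgeR. The region in an intron of KLF13, a Krüppel-like factor, rose from a median of 30.3 to 43.5 CPM, most in KMS27 at 1.303. The region at chr2:137139374-137140377, whose nearest coding gene at 262627 bases is CXCR4, the receptor that holds plasma cells in the marrow, fell in all 6 lines from a median of 85.6 to 58.7 CPM. Its log2 change was -0.44 ± 0.09 with an adjusted p of 0.00172 by edgeR.

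IRF letters were found in 12 of the 50 changed members (24.0%), 7 that rose and 5 that fell, and in 52 of the other members (9.68%), where 9.60% of all regions hold them. Within members that were not CpG-rich the shares were 12 of 47 (25.5%) and 50 of 416 (12.0%). RUNX letters were in 24 of 47 (51.1%) and 146 of 416 (35.1%) of the same groups. The Ikaros core was in 10 of the 28 that rose (35.7%), 3 of the 22 that fell (13.6%) and 21.6% of the members that did not pass, and the GC box in 28.6%, 4.55% and 33.0% of the same groups. Of the 42 members with a CTCF core, 1 changed (2.38%), against 8.99% of those without. Their median level was lower, at 21.7 against 35.1 CPM. These shares were read after the calls were known and were not tested.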

How the data were processed

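ATAC-seq libraries of 22 untreated myeloma lines and of 6 of these lines after lenalidomide were analysed. The submitters' processing notes name GRCh37, Bowtie2 2.2.6, SAMtools 1.7 and MACS2 2.1.0.20151222. The study's methods give these tools the roles of aligner, duplicate marking and peak calling for ChIP-seq and do not state them apart for ATAC-seq. The deposited regions are a union of peaks over libraries. Whether duplicates were left out, read ends shifted or fragments counted is not given in the sources used here. The authors deposited a table of raw read counts per region and library, with the distance to the nearest start, and a second table of whole numbers per region and library. A value above 0 in that second table was read as a peak call. The authors' table of normalized coverage and a list of region positions were not used.

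Members and gene lists were chosen with earlier results of these data known. Named members followed a rule: the 10 highest means, the 5 lowest and 5 highest SDs, the 5 largest rises and falls that passed with 6 of 6 pairs in 1 direction, and the tallest member of each gene list. CPM was computed from the deposited counts with the total over all 154985 regions, and a pseudocount of 1 was used on the log2 scale. Tests used edgeR 4.0.16 (quasi-likelihood, TMM, filterByExpr by condition, R 4.3.3) on all regions of the 12 paired libraries, with cell line as a block and Benjamini-Hochberg adjustment at 0.05. Libraries of a line were paired by the cell line in the labels. With 1 library per line and condition, p-values measure the spread between these libraries. The residual degrees of freedom were 5. The script was tested on simulated data before use. DESeq2 1.42.0, other scalings, filters and left-out lines were alternatives. Motifs were searched in the central 300 bases of each region, and a motif match or its absence was not tested. No column of per-sample values was left without a sample. The sequence of 1 window is not reported here.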

Additional observations from a re-analysis of the deposited data

Results flagged for a closer look

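Among 14 groups of 6 values examined for a value far from the others (the 6 pair changes of 13 named members and the share of counts in the 6 treated libraries), 1 was picked out, and chance picks out about 1 in 20 such groups. The region near CCDC110 fell by 1.53 on the log2 scale in Karpas620, whereas the other 5 lines changed by -0.67 to -0.27. Its untreated level in Karpas620 was 21.2 CPM and its treated level 6.65 CPM. The fall passed the edgeR test in all 6 fits that left out a line.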

How the results depend on the processing

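The number of regions depended on the rule. Requiring a call in all but 1 library gave 991 regions and a distance above 10000 gave 336, against 587, and dropping the requirement for any 1 library gave 587 to 641. The share of a library's counts in members was 3.07% of called regions against 2.33% of all regions (medians over 28 libraries). A CTCF core was found in 15.3% of whole regions against 7.16% of central windows. Under lenalidomide 50 members passed in edgeR, 21 with DESeq2 and 0 with no replicate block, where cell line was left out of the model and 10 members had an unadjusted p under 0.05. The pairing comes from the cell line. Leaving out 1 line gave 31 to 57 changed members, 31 without KMS27 or MM1S and 32 without L363. The 12 alternatives that kept the block left 18 of the 50 past the threshold every time. Of the 10 largest changes, the CD5 region lost its call with DESeq2 and without KMS27, and the RSRC1 region with GC offsets and without MM1S. None of the 13 named members run under the alternatives (the 10 largest changes and 3 list members) turned direction. The IRF1 region kept its call in 8 and the TXNDC5 region in 3 of the 12. The counts that differ between lines were 491 to 559 with other tools and scalings or fewer members and 463 without members near a later start, and left-out lines gave 510 to 528. The median SD across lines was 0.49 to 0.57. Alternatives that left out repeated members or those near a later start were added after seeing the data, and the cause of each difference was not tested. Differences smaller than counting error were not detectable. The median count per member was 48 to 168 across libraries. Single counts went down to 8, where that error is larger.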
